A study of Mus musculus with 7 samples.

Results

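RGS genes encode regulators of G protein signalling, and 7 of them, Rgs1, Rgs2, Rgs3, Rgs10, Rgs14, Rgs16 and Rgs19, are described here in double-negative T cells (DNT cells, T cells with neither CD4 nor CD8) and in CD4, CD8 and unseparated T cells of mouse spleen. The 7 members were taken by symbol, with one row each, from the 27514 genes that all matrices share, among 21 with an Rgs symbol and number. They were picked for their pattern in these same data, so their levels are a description and no p-value is given for them. The data are single-cell RNA libraries made with 10x Chromium 3′ chemistry from spleens of 8-week-old male C57BL/6 mice: 2 of naive DNT, 2 of activated DNT, and 1 each of CD4, CD8 and TCRab. Every sort took CD3+ NK1.1- cells with an αβ and no γδ receptor, and no further CD4 or CD8 gate applied to TCRab. The naive DNT sort also left out cells that bind CD1d tetramers, which mark NKT cells, and activated DNT were naive DNT kept for 3 days with anti-CD3, anti-CD28 and 20 ng/ml IL-2. An unstimulated culture is not among the groups, so stimulation and time in culture cannot be told apart. Kit v2 served for the CD4, CD8 and TCRab libraries and for replicate 1 of each DNT group, kit v3 for the second replicates. The labels do not say whether the replicates came from separate mice, so the spread between them may be technical.

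An RGS protein binds an active Gα subunit and speeds its hydrolysis of GTP, which ends the signal of a G protein-coupled receptor. In T cells the receptors concerned include those for chemokines and sphingosine 1-phosphate, so RGS proteins bear on migration and retention in tissue. Rgs1, Rgs2, Rgs3 and Rgs16 belong to one subfamily built around little more than the RGS domain in most members. Rgs10 and Rgs14 belong to another, and Rgs14 also carries Ras-binding domains and a GoLoco motif that holds inactive Gαi. Rgs19, also called GAIP, is a palmitoylated member of a subfamily of its own among these genes.

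The promoters of Rgs16 and Rgs2 are shown because these members had the largest rise and the largest fall between naive and activated DNT. Each is the 250 bases before the RefSeq start, 5′ to 3′ on the gene's strand, from GRCm38.p6. Rgs16 lies on the plus strand at chr1:153740103-153740352 and Rgs2 on the minus strand at chr1:144004150-144004399. Capitals mark a GC box (GGGCGG or its reverse complement, in both promoters) or a partial CRE site (TGACG or its reverse complement, in Rgs2).
Rgs16: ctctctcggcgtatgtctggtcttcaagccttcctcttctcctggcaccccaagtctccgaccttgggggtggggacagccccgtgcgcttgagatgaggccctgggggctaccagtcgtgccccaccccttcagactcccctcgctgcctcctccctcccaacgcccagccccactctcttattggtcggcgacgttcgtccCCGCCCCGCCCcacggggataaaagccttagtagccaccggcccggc
Rgs2: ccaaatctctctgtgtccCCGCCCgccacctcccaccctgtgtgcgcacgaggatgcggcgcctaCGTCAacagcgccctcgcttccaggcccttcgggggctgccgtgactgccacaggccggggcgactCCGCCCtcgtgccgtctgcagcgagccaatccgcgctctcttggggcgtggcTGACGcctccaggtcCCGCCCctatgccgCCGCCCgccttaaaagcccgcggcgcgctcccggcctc
Of 6 motifs searched on both strands, the Rgs16 window held only GC boxes, 2 of them overlapping by 1 base. The Rgs2 window held 4 GC boxes and 2 partial CRE sites, 185 and 67 bases before the start. Neither window held the full CRE TGACGTCA, which contains the partial site, the AP-1 site TGANTCA, the NFAT core TGGAAA or the E box CACGTG. Over 32851 RefSeq mouse promoters of this length, 32.7% held a GC box and 17.8% a partial CRE site. The full CRE was in 1.55%, the AP-1 site in 6.75%, the NFAT core in 18.6% and the E box in 6.02%. GC content was 66.4% for Rgs16 and 72.4% for Rgs2, against a median of 52.4% over all. These matches describe letters and show no binding.

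The 7 libraries held 28101 cells, from 1549 to 6728 per library. They held 17358231 to 53653855 unique transcript counts (UMIs) each, and median UMIs per cell over shared genes ran from 3966 in TCRab to 15724 in activated replicate 1. Levels below are UMIs of a gene scaled to library size over the shared genes (CPM), summed over all cells of a library. A 3′ library counts each transcript once at its end, so levels were not divided by gene length. Fewer cells with a transcript and fewer transcripts per cell cannot be told apart in such a sum, and shares of cells follow for that reason. Cd3e, a subunit of the T cell receptor complex, was at 337 to 526 CPM in every library. Cd4 was at 137 CPM in CD4 cells and at most 0.204 CPM in DNT, and Cd8a was at 492 CPM in CD8 cells and at most 3.49 CPM in DNT. Cd8b1 was at 1306 CPM in CD8 cells and 22.3 CPM in CD4. It was at 15.2 and 5.23 CPM in naive and 3.11 and 2.34 CPM in activated DNT. Klrb1c, which encodes NK1.1, was at 13.5 and 12.7 CPM in naive DNT despite the NK1.1- sort, in 4.84% and 7.16% of cells. Activated DNT held 0.407 and 3.41 CPM of Klrb1c, and CD4, CD8 and TCRab 0.277, 0.916 and 0.493 CPM. The part of cells with Klrb1c in the results was not tested. Il2ra and Gzmb, genes of activated T cells, were at 197 and 2113 CPM in activated replicate 1 and 209 and 3372 CPM in activated replicate 2, against at most 21.7 CPM for either in naive DNT. The libraries shared few cell barcodes, at most 0.838% of the smaller library of a pair. Naive replicate 1 stood apart in its myeloid transcripts: the 8 myeloid markers summed to 1923 CPM there and to 85.4 to 511 CPM in the other 6 libraries. S100a8 and S100a9 gave 835 and 591 CPM of that sum, while Csf1r, Itgam and Adgre1 were each in at most 0.963% of its cells. Cst3, also a marker on the list, was in 30.1% to 78.2% of cells of every library. Holding 2 markers of the list therefore does not by itself make a cell myeloid. Haemoglobin transcripts summed to 3691 and 816 CPM in naive DNT, 2150 to 2830 CPM in CD4, CD8 and TCRab, and 0 and 0.436 CPM in activated DNT, so they moved with every contrast of activated and naive DNT. Their part in the results was not tested, apart from leaving out cells with more than 1% of haemoglobin UMIs. The 7 B cell markers summed to 109 CPM in naive replicate 2 and to 4.89 to 27.0 CPM elsewhere.

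**Figure D1:**
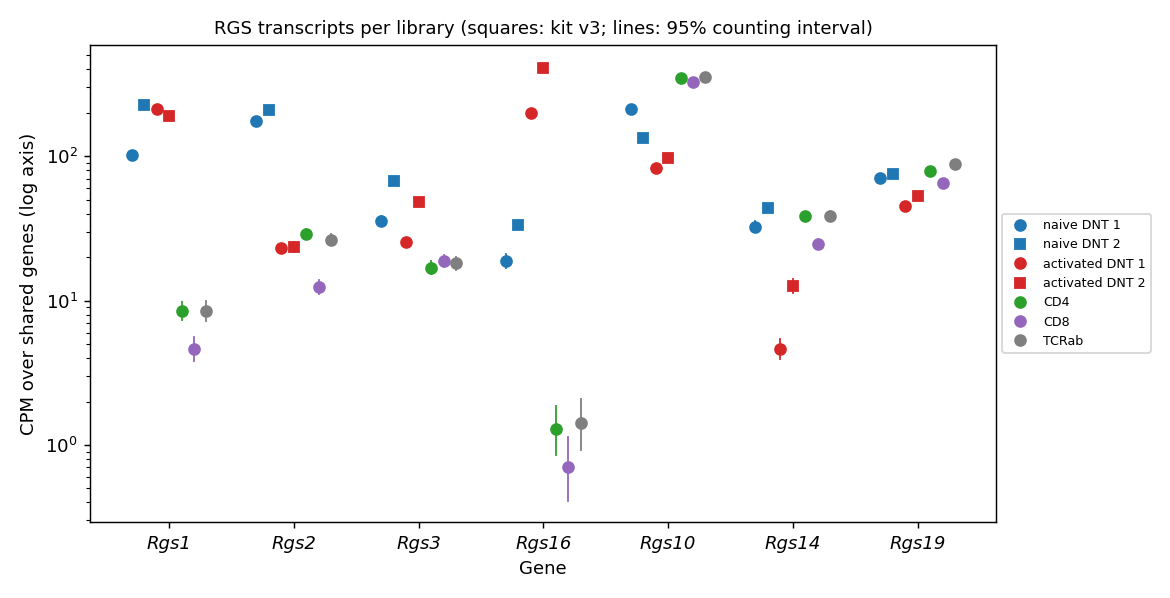
Level of each RGS gene in each library, in CPM over shared genes on a log axis. Squares are kit v3 libraries, circles kit v2, and lines 95% intervals for counting error only. Rgs16 spans from 0.708 CPM in CD8 to 412 CPM in activated replicate 2, Rgs10 runs the other way, and Rgs19 stays between 45.5 and 88.1 CPM.

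The mix of RGS transcripts differed between the groups, while the sum over the 7 genes stayed between 455 CPM in CD8 and 837 CPM in activated replicate 2. Rgs10 made up 66.8%, 72.1% and 66.3% of the members' UMIs in CD4, CD8 and TCRab. In naive DNT it made up 32.7% and 17.0%, and Rgs2 made up 27.0% and 26.5%. In activated DNT, Rgs16 and Rgs1 together took most of the members' UMIs, with 33.6% and 49.3% for Rgs16 and 35.9% and 22.6% for Rgs1. Rgs10 gave 13.9% and 11.7% there.

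Rgs16 (ENSMUSG00000026475, GRCm38 chromosome 1, 153740349 to 153745468, plus strand) acts on Gαi and Gαq and limits chemokine-driven migration of lymphocytes. It was at 19.0 and 33.6 CPM in the naive DNT libraries and at 200.4 and 412 CPM in the activated ones. In CD4, CD8 and TCRab it was at 1.29, 0.708 and 1.4 CPM. The activated libraries were highest, the naive DNT libraries lay between, and none of these 3 sets of libraries overlapped. CD4, CD8 and TCRab rested on 28, 17 and 26 UMIs, and their counting intervals overlapped, although the ratio of TCRab to CD8 was 2.01 (1.05 to 3.95). Within kit v2 the activated to naive ratio of Rgs16 was 10.6 (95% counting interval 9.46 to 11.9) and within kit v3 it was 12.3 (11.7 to 12.9). Over both kits its log2 fold change was 3.40 ± 0.48 (SE, n = 2 and 2 libraries).

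Rgs2 (ENSMUSG00000026360, chromosome 1, 143999338 to 144004161, minus strand) is a GAP with a preference for Gαq. Naive DNT held 175 and 210.1 CPM and activated DNT 23.1 and 23.6 CPM. CD4 held 29.1 CPM, TCRab 26.4 CPM and CD8 12.5 CPM. Both naive DNT libraries stood above the other 5, whose highest value was the one in CD4. The counting intervals of the activated DNT libraries overlapped that of TCRab, and CD8 was the lowest. The log2 fold change of Rgs2 was −3.16 ± 0.45 (SE, n = 2 and 2), with activated levels 7.57-fold lower within kit v2 and 8.89-fold lower within kit v3. The immediate early genes Fos and Dusp1, given further below, were also far lower in activated than in naive DNT. So was Jun, at 541 and 1114 CPM in naive and 22.3 and 87.1 CPM in activated DNT. Egr2 went the other way, from 5.39 and 3.58 to 69.0 and 82.5 CPM. Nr4a1 overlapped, at 32.9 and 139 CPM in naive and 66.1 and 117 CPM in activated DNT. The part of these genes in the fall of Rgs2 was not tested.

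Rgs1 (ENSMUSG00000026358, chromosome 1, 144242296 to 144249242, minus strand) dampens responses to chemokines in B and T cells and is a frequent marker of tissue-resident lymphocytes. It was at 103 and 228 CPM in naive DNT, 214 and 189 CPM in activated DNT, and 8.49, 4.62 and 8.54 CPM in CD4, CD8 and TCRab. All 4 DNT libraries were above the 3 others, and naive and activated DNT overlapped. The log2 fold change of Rgs1 was 0.27 ± 0.47 (SE, n = 2 and 2). Its direction depended on the kit: the activated library was 2.08-fold higher within kit v2 and 1.21-fold lower within kit v3. The 2 naive libraries of Rgs1 differed 2.22-fold from each other (2.11 to 2.33), as much as the activated and naive libraries of kit v2.

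Rgs3 (ENSMUSG00000059810, chromosome 4, 62559847 to 62704001, plus strand), a GAP for Gαi and Gαq with several long isoforms, was at 35.7 and 67.2 CPM in naive and 25.6 and 48.2 CPM in activated DNT. CD4, CD8 and TCRab held 16.9, 18.9 and 18.1 CPM, and these 3 could not be separated within counting error. Naive and activated DNT overlapped across kits, although the activated to naive ratio was 0.717 within each kit. The log2 fold change of Rgs3 was −0.61 ± 0.38 (SE, n = 2 and 2). A 3′ count does not tell its isoforms apart.

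Rgs10 (ENSMUSG00000030844, chromosome 7, 128373621 to 128418758, minus strand), a small GAP for the Gαi family, had the reverse order. TCRab, CD4 and CD8 were highest at 357, 349 and 328 CPM, naive DNT followed at 211 and 135 CPM, and activated DNT was lowest at 82.9 and 97.8 CPM. None of these 3 sets overlapped, and TCRab and CD4 could not be separated within counting error. The log2 fold change of Rgs10 between activated and naive DNT was −1.16 ± 0.52 (SE, n = 2 and 2), and the naive libraries differed 1.57-fold from each other. Activated levels of Rgs10 were 2.55-fold lower within kit v2 and 1.38-fold lower within kit v3, and without naive replicate 1 the log2 fold change was −0.42.

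Rgs14 (ENSMUSG00000052087, chromosome 13, 55369732 to 55384687, plus strand) was at 32.6 and 43.9 CPM in naive DNT and at 4.63 and 12.6 CPM in activated DNT. CD4, CD8 and TCRab held 38.7, 24.6 and 38.8 CPM, in the range of naive DNT or below it. The activated DNT libraries were the lowest of the 7, with a log2 fold change of −2.37 ± 0.45 (SE, n = 2 and 2). Rgs19 (ENSMUSG00000002458, chromosome 2, 181688419 to 181693977, minus strand) varied least, from 45.5 and 53.5 CPM in activated DNT to 70.6 and 75.7 CPM in naive DNT. It was at 79.0, 65.6 and 88.1 CPM in CD4, CD8 and TCRab. The activated libraries were again the lowest for Rgs19, with a log2 fold change of −0.72 ± 0.39 (SE, n = 2 and 2).

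All 7 members passed the filter on low counts. Rgs16, Rgs2 and Rgs14 were past an adjusted p of 0.05 in the edgeR quasi-likelihood test over 12325 genes, in which 10.4% of genes were called (5.32% higher, 5.06% lower). Since the members were chosen on this contrast, nothing is read from the 3 of 7. With the replicate number, which is the kit, as a block, 6 of 7 were called, all but Rgs1, and 39.7% of all genes. Without naive replicate 1, 1 member was called, Rgs2.

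Against CD4, CD8 and TCRab there is 1 library per group and no test. A gene was counted as apart when both naive DNT libraries differed from the other library at least 2-fold in one direction, with at least 20 CPM throughout the higher side. Rgs1 and Rgs2 met this against all 3 libraries and Rgs3 against CD4 only. That is 3 members higher in naive DNT against CD4, 2 against CD8, 2 against TCRab and 0 lower. Of the genes that could meet the rule, 5.51% were higher and 1.34% lower in naive DNT against CD4, 6.85% in either direction. Against CD8 4.87% were higher and 0.532% lower (5.40%), and against TCRab 4.16% and 1.18% (5.34%). The 3 comparisons share the naive libraries and are not independent. Rgs1 was 12.1-fold (10.4 to 14.2) and 26.9-fold (23.2 to 31.3) above CD4 in the 2 naive libraries, and Rgs2 6.02-fold (5.52 to 6.57) and 7.23-fold (6.67 to 7.84). In naive replicate 1 Rgs3 was 2.11-fold (1.85 to 2.41) above CD4, 1.89-fold (1.67 to 2.14) above CD8 and 1.97-fold (1.72 to 2.26) above TCRab. All of these Rgs3 intervals hold 2, so its call against CD4 only rests on the cut-off. Rgs16 was 14.7-fold (9.96 to 22.4) and 26.0-fold (17.9 to 39.2) above CD4 but missed the 20 CPM minimum in naive replicate 1. Rgs10 was 1.65-fold and 2.58-fold lower than in CD4, so only the kit v3 library passed 2-fold. Without naive replicate 1, 5 members met the rule against each of CD4, CD8 and TCRab, 4 higher and 1 lower. The naive libraries also held far more of the immediate early genes Fos, at 661 and 532 CPM, and Dusp1, at 454 and 645 CPM. CD4, CD8 and TCRab held 62.0, 40.8 and 70.8 CPM of Fos and 28.8, 13.0 and 30.3 CPM of Dusp1. Activated DNT held 4.89 and 13.9 CPM of Fos and 6.93 and 10.9 CPM of Dusp1. The part of early gene induction in the RGS differences, also those between activated and naive DNT, was not tested.

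**Figure D2:**
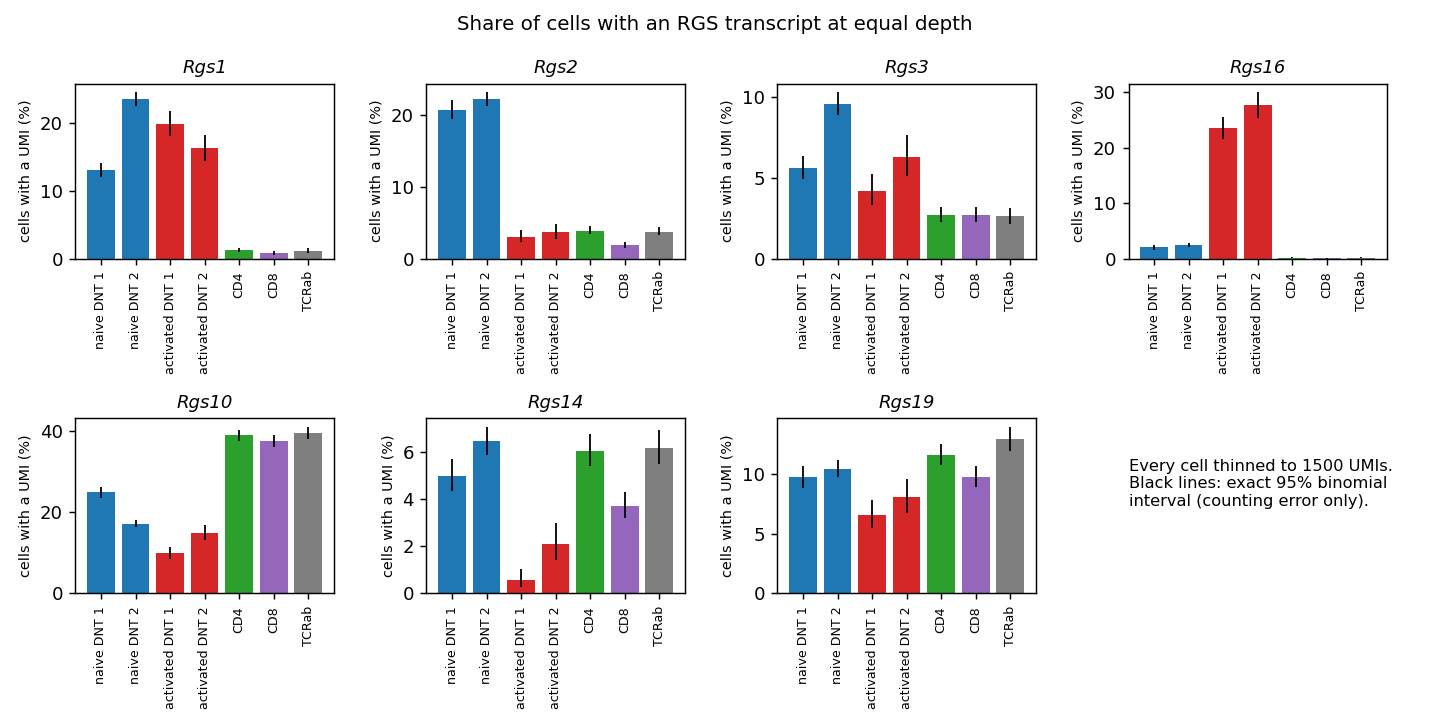
Share of cells with at least 1 UMI of each RGS gene after every cell was thinned to 1500 UMIs, in percent, one bar per library with exact 95% binomial intervals. Rgs16 reached 23.6% and 27.7% of activated DNT and at most 2.39% of cells elsewhere, and Rgs10 was most frequent in TCRab, CD4 and CD8.

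Shares of cells were compared after each cell was thinned to 1500 UMIs, because deeper cells detect more of every gene. Rgs16 was found in 2.02% and 2.39% of naive DNT and in 23.6% and 27.7% of activated DNT (3.95%, 6.94%, 68.9% and 52.7% before thinning). In CD4, CD8 and TCRab it was in 0.140%, 0.043% and 0.188% of cells. No cell type known to lack these genes was present in number. Lyz2, a myeloid transcript that T cells do not make, was in 0.740% of CD4, 0.129% of CD8 and 1.29% of TCRab cells at the same depth, as a measure of free RNA. The haemoglobin transcript Hbb-bs, another that T cells do not make, was in 12.8%, 6.82% and 12.5% of cells there, in 20.4% and 1.44% of naive DNT and in 0% of activated DNT, where 0 UMIs in replicate 1 and 2 UMIs in replicate 2 were counted. The Rgs16 shares in CD4, CD8 and TCRab were below both, and the Rgs1 share in TCRab also. The shares of Rgs1, Rgs2, Rgs3 and Rgs14 in these 3 libraries were below that of Hbb-bs, as was the Rgs19 share in CD4, 11.6%. None of these shares is read as expression on its own. In naive replicate 1 Lyz2 was in 4.02% of cells, above the Rgs16 share, and in naive replicate 2 in 0.587%, below it. The shares of Rgs1, Rgs3, Rgs14, Rgs16 and Rgs19 in naive replicate 1, under that of Hbb-bs, are treated in the same way. So is the Rgs2 share there, 20.7%, whose counting interval held the Hbb-bs share. In activated DNT, Lyz2 was in at most 0.068% of cells.

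Rgs2 was in 20.7% and 22.1% of naive DNT and in 3.02% and 3.66% of activated DNT (40.1%, 53.9%, 22.1% and 18.2% before thinning). It was in 3.88%, 1.87% and 3.76% of CD4, CD8 and TCRab cells. Rgs1 was in 13.0% and 23.5% of naive DNT, 19.9% and 16.3% of activated DNT and 0.753% to 1.20% of the other 3 libraries (29.0%, 59.1%, 62.4% and 47.1% of DNT before thinning). Rgs10 was in 24.8% and 17.2% of naive DNT, 9.88% and 14.8% of activated DNT, and 39.0%, 37.5% and 39.5% of CD4, CD8 and TCRab. Before thinning its shares in naive and activated DNT were alike, at 50.5% to 57.3%, since the activated cells were deeper. Rgs14 was in 4.99% and 6.47% of naive and 0.558% and 2.1% of activated DNT (13.0%, 28.5%, 8.04% and 17.1% before thinning). Rgs3 was in 4.19% to 9.58% and Rgs19 in 6.59% to 10.5% of cells across the 4 DNT libraries. Leaving out cells with markers of B cells, myeloid cells or erythrocytes moved no share of any member beyond its counting interval.

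Some cells held many copies. Over cells with at least 1 UMI and without thinning, the mean was 2.04 and 3.83 UMIs of Rgs16 in naive DNT, and 5.58 and 12.7 in activated DNT. A single cell of activated replicate 2 held 203 UMIs of Rgs16, and the top 10% of cells in that library held 63.0% of its Rgs16 UMIs, against 40.5% in activated replicate 1. Rgs1 gave 1.51 and 3.06 UMIs per positive cell in naive and 6.58 and 6.54 in activated DNT, where depth per cell was also higher.

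RGS genes were detected together as well as apart. At 1500 UMIs per cell, 57.8% and 62.0% of naive DNT, 50.9% and 56.8% of activated DNT, and 53.8%, 48.4% and 53.6% of CD4, CD8 and TCRab held at least 1 of the 7 transcripts. Cells with 2 made up 15.6% and 18.4% of naive DNT, 11.2% and 13.9% of activated DNT and 6.98% to 10.5% of the others. These are shares of cells with a UMI at this depth.

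**Figure D3:**
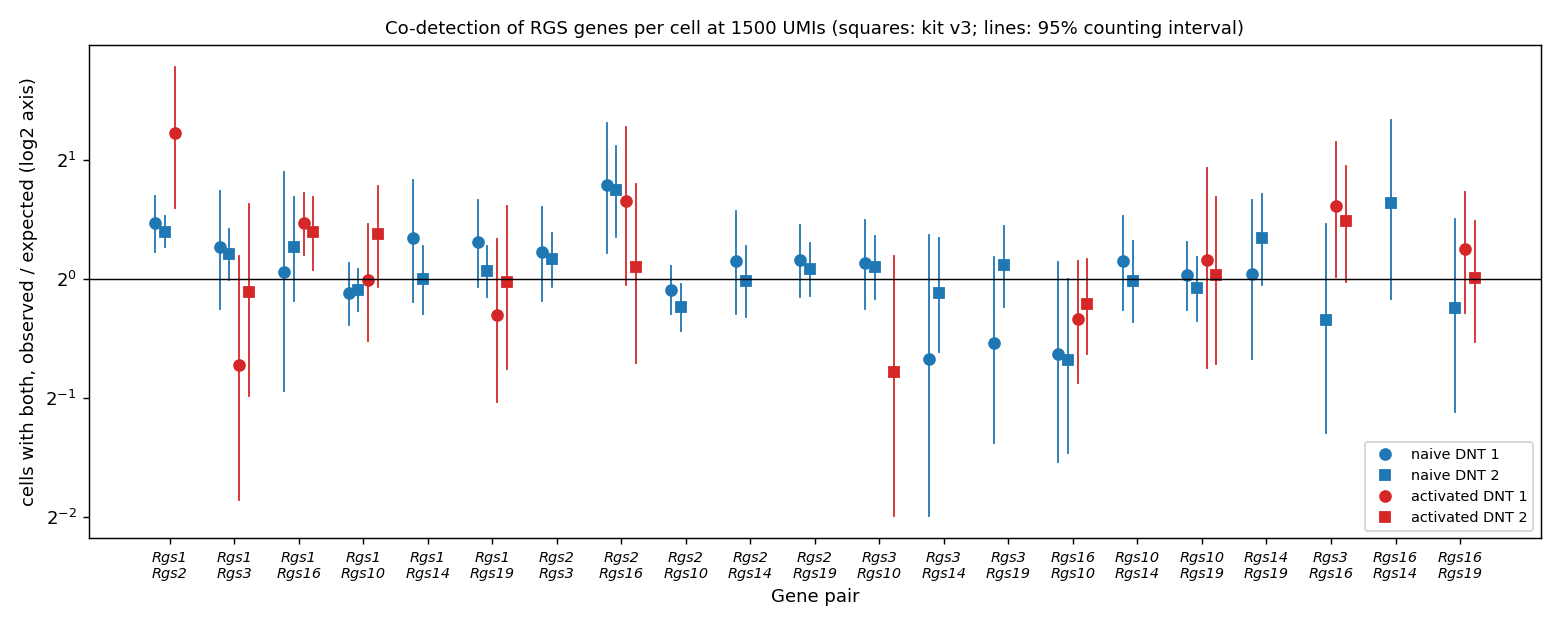
Cells with both genes of a pair divided by the number expected if the 2 were independent, on a log2 axis, for pairs with at least 10 expected cells in a DNT library. Lines are 95% counting intervals. The pair Rgs1 and Rgs2 lies above 1 in the 3 libraries drawn, and Rgs16 and Rgs10 below 1 in all 4.

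Co-detection was set against the product of the 2 shares in each library. Of the 21 pairs in 4 DNT libraries, 59 combinations had at least 10 expected cells. In 8 of these the interval lay above 1 and in 2 below 1, with no correction for their number, and in CD4, CD8 and TCRab in none. Rgs1 and Rgs2 were found together in 149 cells of naive replicate 1 and 455 of naive replicate 2, 1.38 times (1.17 to 1.61) and 1.31 times (1.20 to 1.44) the expected number. In activated DNT the same pair gave 2.33 times (1.51 to 3.43), from 25 cells, and 1.71 times (0.96 to 2.80), from 15 cells with fewer than 10 expected. Rgs2 and Rgs16 were together 1.73 times (1.16 to 2.48) and 1.68 times (1.28 to 2.16) the expected number in naive DNT. Rgs1 and Rgs16 exceeded expectation in activated DNT, 1.38 times (1.15 to 1.65) and 1.31 times (1.05 to 1.60), and gave 1.04 times (0.52 to 1.86) and 1.20 times (0.88 to 1.61) in naive DNT. Rgs16 and Rgs10 gave 0.65, 0.62, 0.79 and 0.86 times the expected number in naive replicates 1 and 2 and activated replicates 1 and 2, and the interval excluded 1 only in naive replicate 2. The cells of a library are not replicates, and differences between groups in these ratios were not tested.

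**Figure D4:**
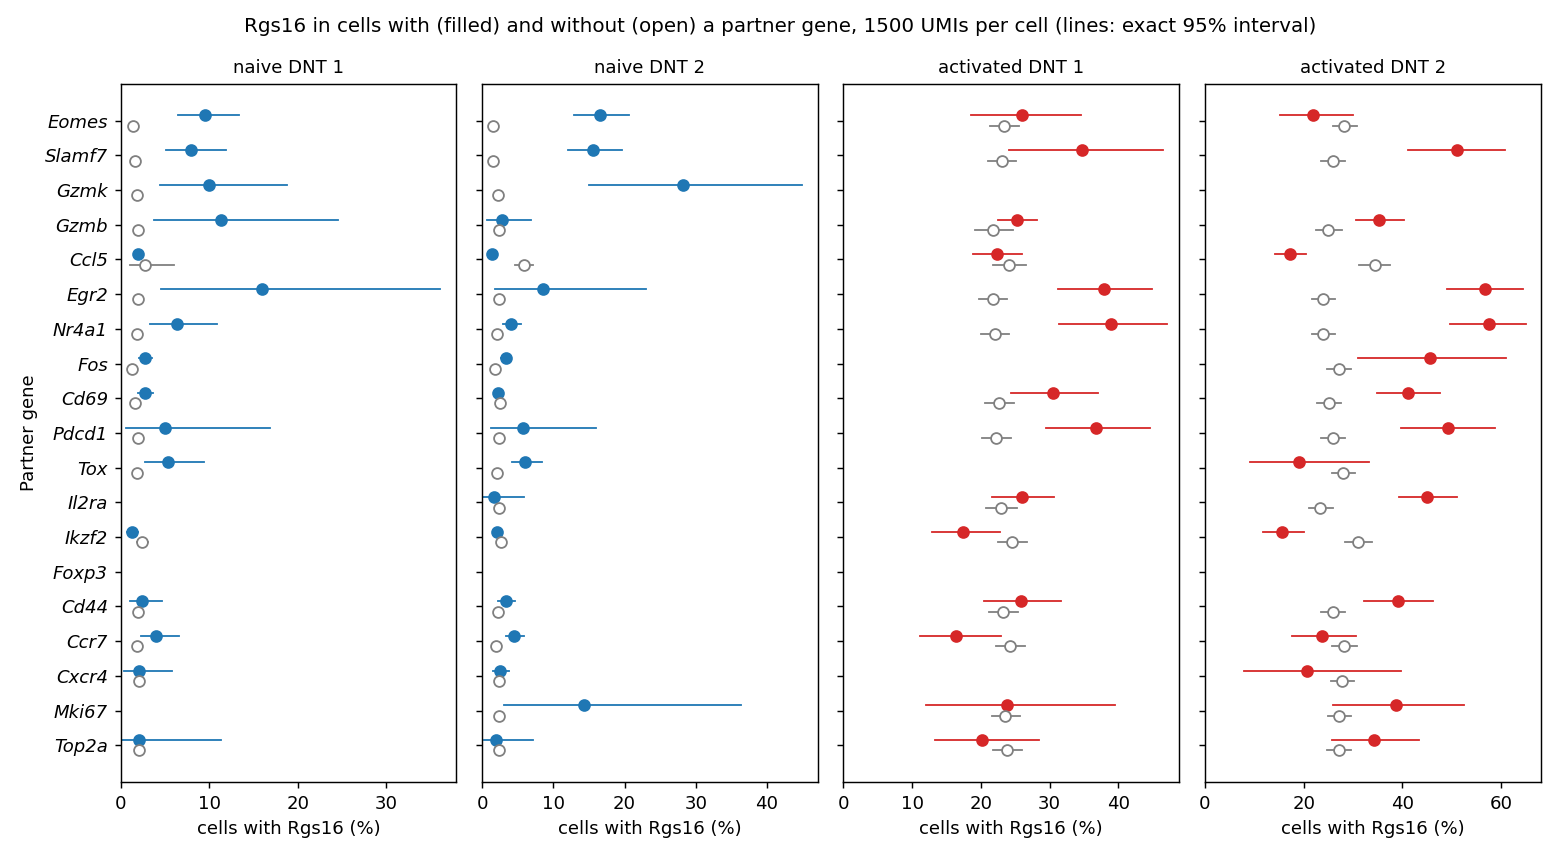
Share of cells with Rgs16 among cells with (filled) and without (open) a UMI of each of 19 partner genes, in percent at 1500 UMIs per cell, for the 4 DNT libraries; genes with under 20 positive cells in a library are left blank. In naive DNT the Rgs16 share is higher in cells with Eomes or Slamf7, and in activated DNT in cells with Egr2 or Nr4a1. The partner genes were chosen with earlier results of these data known.

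Each member was set against partner genes with at least 20 positive cells in a library, 15 to 19 of the 20 listed, with no correction for the number of contrasts. The partner genes were listed with earlier results of these same data known, so the shares are a description and no independent support for a link. In naive DNT the Rgs16 share was higher beyond the counting intervals with 8 of 17 partner genes in replicate 1 and lower with 0. In replicate 2 it was higher with 8 of 19 and lower with 1. Eomes, a T-box factor of effector and memory T cells, was among the higher ones in both replicates. Of naive DNT cells with Eomes, 9.51% and 16.5% held Rgs16, against 1.41% and 1.55% of cells without it. For Slamf7, a receptor of cytotoxic lymphocytes, the shares were 8.0% and 15.6% with it and 1.58% and 1.60% without. Gzmk, a granzyme, gave 10.0% of 80 cells and 28.2% of 39 cells, against 1.86% and 2.24%. Ccl5, a chemokine made by most naive DNT, went the other way: Rgs16 was in 1.98% and 1.43% of cells with it and in 2.80% and 5.84% of cells without, with the intervals apart in replicate 2 alone. In activated DNT, Eomes gave 26.0% and 21.97% with it and 23.4% and 28.2% without, and the intervals overlapped.

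In activated DNT, the Rgs16 share was higher with 3 of 15 partner genes in replicate 1 and lower with none beyond the counting intervals. In replicate 2 it was higher with 9 of 18 and lower with 3, Ccl5 and Ikzf2 among them. Egr2, Nr4a1 and Pdcd1 were the 3 in replicate 1 and were among the 9 in replicate 2. Cells with Egr2, a factor induced by antigen receptor signals, held Rgs16 in 37.9% and 56.8%, against 21.7% and 23.9% of cells without. Nr4a1, also induced by such signals, gave 39.0% and 57.5% against 22.1% and 23.9%, and Pdcd1, the gene of PD-1, 36.7% and 49.1% against 22.2% and 25.9%. With Il2ra the activated shares were 26.0% and 45.1% against 22.9% and 23.4%, with Cd69 30.5% and 41.1% against 22.6% and 25.1%, and with Cd44 25.8% and 39.0% against 23.2% and 25.9%. For these 3 the intervals were apart in replicate 2 only. Ccl5 gave 22.3% and 17.1% against 24.1% and 34.4%, and Ikzf2 17.4% and 15.6% against 24.5% and 31.0%, again apart in replicate 2 only. Naive DNT with Nr4a1 also held Rgs16 more often, in 6.38% and 4.13% against 1.81% and 2.07%. For the cell cycle genes the intervals overlapped: with Top2a the activated shares were 20.2% and 34.2%, without it 23.8% and 27.1%. With Mki67 they were 23.8% of 42 cells and 38.6% of 57 cells, without it 23.6% and 27.2%.

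The other members also varied with partner genes. In naive DNT, Rgs2 was in 33.5% and 29.2% of cells with Nr4a1 and in 20.1% and 20.8% without, and in 22.9% and 26.9% of cells with Fos against 18.3% and 19.2%. Rgs10 was lower beyond the intervals with 6 of 17 partner genes in naive replicate 1 and higher with 0, and lower with 4 of 19 and higher with 1 in naive replicate 2. With Slamf7 it was in 9.45% and 12.4% of naive DNT against 26.0% and 17.5% without, with Eomes in 16.4% and 12.2% against 25.5% and 17.5%, and with Gzmb in 4.55% and 8.97% against 25.1% and 17.3%. With Gzmk it was in 7.50% and 10.3% against 25.2% and 17.2%, apart in replicate 1 only. With Ccl5 it was in 25.1% and 18.03% against 20.6% and 14.1%, which was the higher one, apart in replicate 2. Rgs1 in naive DNT hardly varied with Eomes, at 13.1% and 23.9% with it and 13.0% and 23.5% without. In the CD4 library Rgs1 was in 9.36% of 171 cells with Ikzf2, against 0.912% of cells without, and in TCRab in 10.1% of 158 cells against 0.829%. Foxp3, the factor that defines regulatory T cells, gave 8.33% of 72 CD4 cells and 24.3% of 37 TCRab cells, against 1.10% and 0.971% of cells without it. For Rgs19, no partner gene separated the cells beyond the counting intervals in any library.

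Genes whose levels ran most like a member's over the 7 libraries were taken among 4469 genes with a mean of at least 20 CPM, by Pearson's r of log2(CPM + 1). The 7 points share kits and fall into 3 sets of libraries, so these values describe a pattern and carry no p. Rgs16 ran with Nrgn (r = 0.995), Srgn (0.994) and Ifng (0.994), the last at 47.3 and 89.0 CPM in naive and 423 and 704 CPM in activated DNT. Rgs1 ran with Cd44 (0.991), Sla (0.988) and Nfil3 (0.985), and Rgs2 with Pofut2 (0.995), Junb (0.983) and Smim10l1 (0.982). Rgs10 ran with the sphingosine 1-phosphate receptor gene S1pr4 (0.990), Eif3e (0.988) and Aamdc (0.987). Rgs14 ran with Rcbtb2 (0.994), Lbh (0.994) and Rgl2 (0.990), Rgs3 with Serinc3 (0.987), Fnbp1 (0.986) and Odf2 (0.985), and Rgs19 with Creb3 (0.989), Gm2a (0.985) and Eci2 (0.984). Among the members themselves, Rgs16 and Rgs10 gave the lowest r, −0.97, and Rgs14 and Rgs19 the highest, 0.95.

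**Figure D5:**
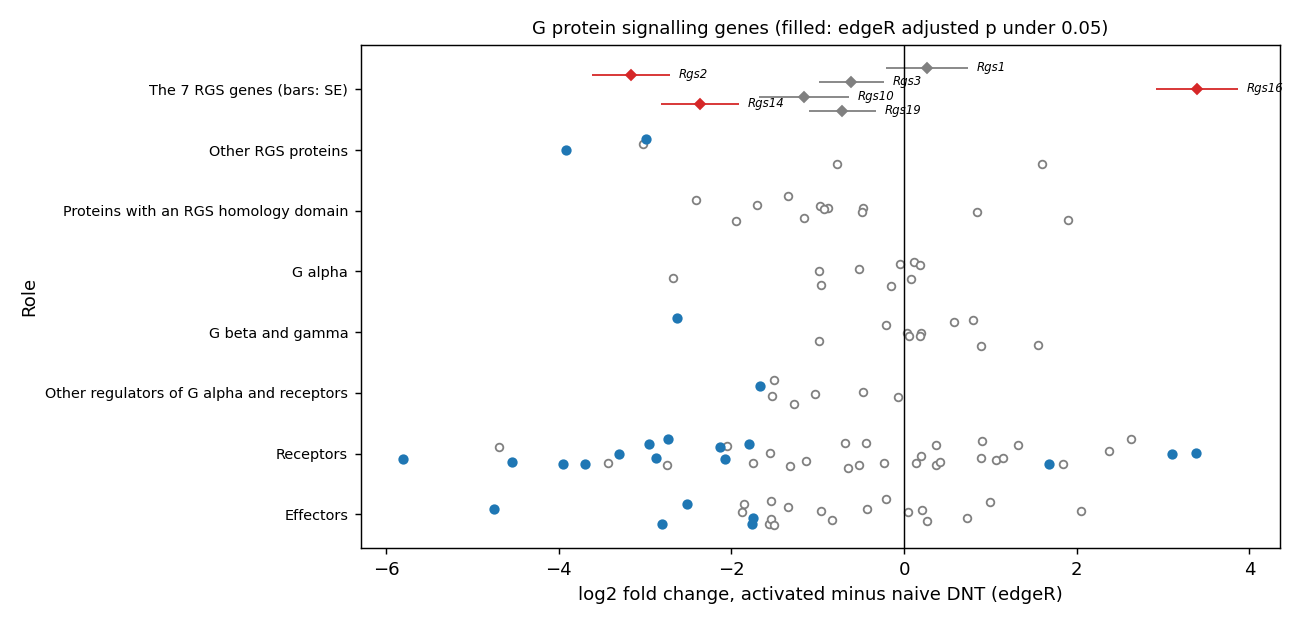
Log2 fold change of activated minus naive DNT for the 7 RGS genes (diamonds with SE) and for 106 other G protein signalling genes by role (circles). Filled circles and red diamonds passed an edgeR adjusted p of 0.05, open circles and grey diamonds did not. Of the other genes 3 rose, all of them receptors, and 20 fell.

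Of 135 other genes of G protein signalling listed, 134 were in both references and 106 were tested between activated and naive DNT. In the edgeR test 3 rose and 20 fell, beside the 5.32% of all genes that were called higher and the 5.06% called lower. The median log2 fold change of the 106 was −0.86, against −0.05 over all genes tested. With the replicate block 13 rose and 46 fell, beside 19.9% of all genes higher and 19.8% lower. Without naive replicate 1 the list had 10 calls, without naive replicate 2 it had 14, and without activated replicate 2 it had 39.

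The remaining RGS genes were low. The 14 others with an Rgs symbol were at most 6.74 CPM in any library, the highest being Rgs12 in activated replicate 2. Of 5 tested on the list, Rgs6 fell from 3.48 and 2.42 to 0.204 and 0.238 CPM (log2 fold change −3.91 ± 0.72, edgeR adjusted p = 0.021). Rgs11 fell from 2.14 and 4.03 to 0.407 and 0.396 CPM (−2.99 ± 0.61, adjusted p = 0.028). Without naive replicate 1 neither kept its call, at −3.27 for Rgs6 and −3.13 for Rgs11, nor did Rgs11 without naive replicate 2, at −2.81. Rgs18, on chromosome 1 as are Rgs1, Rgs2 and Rgs16, did not exceed 1.68 CPM. None of 12 tested genes with an RGS homology domain passed in edgeR, beside 10.4% of all genes, and nothing is read from so few. At an unadjusted edgeR p under 0.05 the counts were 1 higher and 4 lower, by DESeq2 1 and 4, and with the block 1 and 5. Among the 12 was Grk2, a kinase that desensitises receptors, at −0.92 ± 0.40 (edgeR adjusted p = 0.18, and 0.0073 with the block). Arhgef1, a Gα13-regulated activator of RhoA, gave −1.35 ± 0.45 (adjusted p = 0.099, and 0.0016 with the block). Both were chosen as examples after their values were seen.

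None of 9 tested Gα genes passed the edgeR test, in which 10.4% of all genes were called, so nothing is read from so few genes. Gnai2, the main Gαi gene of lymphocytes, was at 327 and 577 CPM in naive and 265 and 416 CPM in activated DNT, and the groups overlapped. At an unadjusted p under 0.05 the edgeR test gave 0 higher and 1 lower, DESeq2 0 and 1 at an adjusted 0.05, and the replicate block 0 and 2. Among 11 βγ genes, Gngt2 fell (−2.63 ± 0.52, edgeR adjusted p = 0.025), from 34.4 and 20.8 to 4.39 and 6.18 CPM. Without naive replicate 1 Gngt2 gave −1.83 (edgeR adjusted p = 0.082), and without cells with markers of other types −1.997 (adjusted p = 0.029). The call was also lost after thinning (adjusted p = 0.087). The other regulators of Gα and receptors had 0 rises and 1 fall in edgeR, and 0 and 5 with the replicate block. Of 7 other regulators, Arrb2, the gene of β-arrestin 2, fell by 1.67 ± 0.40 on the log2 scale (edgeR adjusted p = 0.043), and lost its call without any 1 of the 4 libraries.

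Among 40 receptors 3 rose and 11 fell in edgeR, beside 5.32% of all genes called higher and 5.06% called lower. With the replicate block 9 rose and 17 fell, beside 19.9% and 19.8% of all genes. Ccr9, a receptor for gut homing, fell from 6.49 and 20.3 to 0.204 and 0.278 CPM (−5.81 ± 0.61, edgeR adjusted p = 0.0071). Ccr10 (−4.54 ± 0.85, adjusted p = 0.022) and Cx3cr1, the fractalkine receptor (−3.95 ± 0.80, adjusted p = 0.028), fell from low levels, and both lost the call without naive replicate 1. Cx3cr1 is also a gene of myeloid cells, whose markers were highest in naive replicate 1. Without cells that held at least 2 markers of B or myeloid cells or over 1% haemoglobin UMIs, 928 of them in naive replicate 1, Cx3cr1 gave −3.15 (edgeR adjusted p = 0.038). A rule on the share of marker UMIs, added after the data were seen, left out 68 cells there and gave −2.92 (adjusted p = 0.053). The part of myeloid cells in the Cx3cr1 value was not tested further. Among those that rose were Ptger2 and Ccr4, with log2 fold changes of 3.38 ± 0.40 and 3.11 ± 0.49. These are named because they are few, after their values were seen. Ptger2 encodes a prostaglandin E2 receptor that couples to Gαs, and Ccr4 a chemokine receptor.

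Of 22 effectors, 5 fell and none rose in edgeR, beside 5.06% of all genes called lower and 5.32% called higher. Rises numbered 1 at an unadjusted edgeR p under 0.05, 0 by DESeq2 and 1 with the replicate block. Falls numbered 11, 10 and 13 in the same order. With the block 19.8% of all genes were called lower. Rasgrp2, a calcium-sensitive activator of Rap1, fell from 185 and 241 to 5.41 and 12.9 CPM (−4.75 ± 0.51, edgeR adjusted p = 0.0071). Prex1, a Rac activator that responds to Gβγ, fell from 83.6 and 119 to 11.4 and 21.3 CPM (−2.80 ± 0.40, adjusted p = 0.011). After thinning to 1500 UMIs Prex1 lost its call (edgeR adjusted p = 0.057). Plcb2, a phospholipase C, fell from 9.504 and 21.4 to 2.50 and 3.13 CPM (−2.51 ± 0.43, adjusted p = 0.017). In all 3 both activated libraries lay below both naive ones, which adds nothing to the calls. The 3 were picked for the size of this same change.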

How the data were processed

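For 7 libraries the authors deposited matrices of UMI counts that were not normalized, with genes in rows and cell barcodes in columns. The submitters' processing notes name Cell Ranger 2.1.0 and 3.0.1 with mm10 (GRCm38), and the headers of the kit v3 matrices, per the file headers, name software version 3.0.2. Cells needed 200 genes or more and no more than 10% of UMIs from mitochondrial genes, doublets were not removed, and the 27514 gene IDs common to both references were used. The members and gene lists were chosen with earlier results of these data known.

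Library sums of UMIs went through filterByExpr and TMM into edgeR 4.0.16 (robust quasi-likelihood F test, Benjamini-Hochberg, 0.05) in R 4.3.3, 2 against 2 libraries with 2 residual degrees of freedom; DESeq2 1.42.0 was an alternative. P-values measure the spread between these libraries. The replicate number is the library kit in the labels, so it marks a shared batch: deviations of same-numbered libraries correlated across genes with r = 0.648, from 2 pairs, and genes are not independent replicates. Counts with a block on it are given for all genes, the members, the whole list and some roles. Ratios, shares and co-detection carry exact 95% intervals for counting error only. Shares used cells thinned to 1500 UMIs (seed 7), which left out 0 to 80 cells per library. Named genes are the 7 members, up to 3 called genes per role with the largest change, and the 3 most alike genes. Coordinates are from GENCODE vM21 and promoters from RefSeq (GRCm38.p6), where 5 of 7 members matched. The edgeR test and the thinning were tested on simulated data. Python 3.11.15, SciPy 1.17.1 and pandas 2.3.3 did the rest. A few genes are not reported here.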

Additional observations from a re-analysis of the deposited data

How the results depend on the processing

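The number of genes called between activated and naive DNT, 1280, was 2390 with DESeq2, 2188 without the filter on low counts and 278 after thinning each cell to 1500 UMIs, and 547 to 2074 when 1 library was left out. With the replicate block it was 4894. The RGS members called, 3, were 6 with the replicate block and 1 to 3 with 1 library left out; after thinning Rgs14 was not called. The 23 calls among other G protein genes became 44 with DESeq2, 43 without the filter, 59 with the replicate block, 4 after thinning and 10 to 39 with 1 library left out. Leaving 1 library of a group assumes that the lone library varies like the other group. The fold change of Rgs1 was 1.06 on the log2 scale in kit v2 alone, −0.27 in kit v3 alone and −0.04 after thinning. The members 2-fold apart from CD4, CD8 and TCRab numbered 3 to 5, 2 to 5 and 2 to 5 with 1 naive library left out, and 4 against both CD8 and TCRab after thinning. Thinning drops low genes and depth, so fewer genes can be called. Of the 57 co-detection ratios recomputed, 48 stayed within their interval at 1000 UMIs and 52 without thinning. Shares depend on depth by construction: 47 of 49 moved without thinning. Leaving out cells with markers of other types moved 0 of 49 shares beyond its interval. A rule on marker UMI shares, which left out fewer cells, was chosen after seeing the data.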
